A study of Mus musculus with 10 samples.

Results

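The genes described here encode the pyruvate dehydrogenase complex and the enzymes that switch it off and on. They were taken by symbol: the kinases Pdk1, Pdk2, Pdk3 and Pdk4, the phosphatases Pdp1 and Pdp2, and the subunits Pdha1, Pdhb, Dlat and Pdhx, 10 of the 23420 gene rows. All 10 had enough reads to be tested. The livers came from male C57BL/6 mice aged 4 months. They are 5 starved livers, from mice that had water but no food for 48 hours, and 5 fed livers, from mice on standard chow. Each liver gave 1 RNA-seq library of total RNA, and libraries are numbered 1 to 5 in each group.

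Pyruvate dehydrogenase is a mitochondrial complex that turns pyruvate into acetyl-CoA, a step that animal cells cannot reverse. The kinases phosphorylate the subunit made by Pdha1 and stop the complex, and the phosphatases remove the phosphate and restart it. In fasted liver, holding the complex inactive is known to spare pyruvate for glucose synthesis while fatty acids supply the acetyl-CoA.

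In starved liver Pdk4 and Pdha1 rose and Pdk1 fell, and the other 7 genes did not pass the test. Levels are CPM, the count of a gene scaled to a common library size with edgeR's TMM factors. A gene is called, and said to rise or fall, at an adjusted p under 0.05 in edgeR's quasi-likelihood fit, with p-values adjusted by the Benjamini-Hochberg method across the 12796 genes tested. Adjusted p-values below come from that fit unless another tool is named. Of all tested genes 18.6% were higher and 20.0% lower in starved liver, so 2 higher and 1 lower of 10 is near the background. With library totals as the only scaling, 11.6% of tested genes were higher and 27.3% lower, and of the 10 genes 2 were higher and 2 lower. Levels did not overlap between the groups in 3 of the 10, Pdk4, Pdha1 and Pdk1, against 29.9% of all tested genes. The median log2 fold change of starved over fed liver was 0.22 over the 10 genes and 0.00 over all tested genes.

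**Figure D1:**
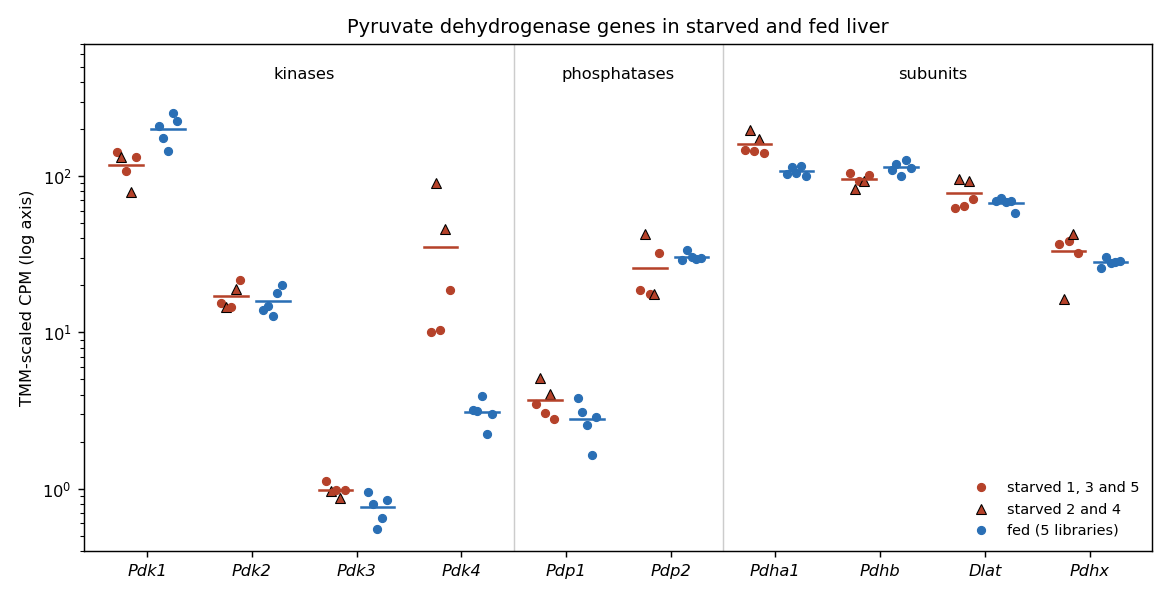
Level of each gene in every library, in TMM-scaled CPM on a log axis, with starved libraries (red) left of fed libraries (blue). Short lines are group means and triangles are starved libraries 2 and 4. The starved libraries lie above all fed libraries for Pdk4 and Pdha1 and below them for Pdk1, and Pdk4 spans 10.04 to 90.9 CPM in starved liver.

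Starved libraries 2 and 4 stood apart from the others. Over all tested genes they differed from the other starved libraries and from each other by a root mean square of 0.59 to 0.96 on the log2 scale, against 0.32 to 0.45 among starved libraries 1, 3 and 5 and 0.32 to 0.41 among fed libraries. Reads in genes came to 18197194 to 28065220 per starved library and 22978413 to 29941358 per fed library. Reads aligned to several places were 38.6% and 40.7% in starved libraries 2 and 4, against 43.4% to 48.4% in all other libraries. The part of this in their distance from the others was not tested. Of the liver markers listed, 9 hepatocyte genes summed to 120100 to 181600 CPM in starved and 95930 to 140500 CPM in fed livers, where 3 rose and 1 fell. For this and the counts that follow, the shares over all tested genes were 18.6% higher and 20.0% lower. Of 8 Kupffer cell and macrophage markers 7 fell and none was at 0, with sums of 168 to 367 CPM in starved and 432 to 729 CPM in fed livers. Of 8 sinusoidal endothelial markers 5 fell and 1 rose, and of 8 stellate cell markers 2 fell and 1 rose. Of the tested markers of bile duct cells 1 of 5 fell, of lymphocytes 2 of 5 and of red cells 2 of 2, and of 4 tested fat cell markers 1 rose and 1 fell. The globin genes Hbb-b1, Hbb-b2, Hba-a1 and Hba-a2 were listed at 0 in all libraries. The counts leave out reads aligned to several places, so these values do not show that globin RNA was absent. The part of these shifts in the changes below was not tested, and in bulk tissue fewer cells of a type and less RNA per cell cannot be told apart.

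The promoters of the 3 called genes are shown as the regulatory sequence beside the start of the genes that moved. Windows are RefSeq's on GRCm38.p6 (the same coordinates as mm10), 250 bases before to 50 after the annotated start, read in the direction of the gene. Capitals mark matches, on either strand, to 7 motifs: TGTTTAC (the forkhead core), AAGGTCA (a half-site of nuclear receptors), AGAACA (a half-site of the glucocorticoid receptor), CACGTG (the E-box), GGGCGG (the GC box), CCAAT and TATAAA.
Pdk4, chr6:5496229-5496528, minus strand: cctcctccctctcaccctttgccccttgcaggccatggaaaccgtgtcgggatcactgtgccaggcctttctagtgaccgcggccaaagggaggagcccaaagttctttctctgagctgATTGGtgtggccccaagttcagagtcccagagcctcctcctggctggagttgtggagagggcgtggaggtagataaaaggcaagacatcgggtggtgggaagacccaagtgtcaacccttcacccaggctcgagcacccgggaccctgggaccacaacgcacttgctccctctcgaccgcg
Pdk1 (the first of its annotated starts), chr2:71872974-71873273, plus strand: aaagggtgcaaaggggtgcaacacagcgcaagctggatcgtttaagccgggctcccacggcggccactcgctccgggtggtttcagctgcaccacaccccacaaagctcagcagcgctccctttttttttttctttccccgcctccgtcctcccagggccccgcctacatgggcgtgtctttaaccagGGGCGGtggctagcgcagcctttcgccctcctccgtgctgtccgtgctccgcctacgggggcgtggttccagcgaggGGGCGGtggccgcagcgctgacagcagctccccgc
Pdha1, chrX:160138381-160138680, minus strand: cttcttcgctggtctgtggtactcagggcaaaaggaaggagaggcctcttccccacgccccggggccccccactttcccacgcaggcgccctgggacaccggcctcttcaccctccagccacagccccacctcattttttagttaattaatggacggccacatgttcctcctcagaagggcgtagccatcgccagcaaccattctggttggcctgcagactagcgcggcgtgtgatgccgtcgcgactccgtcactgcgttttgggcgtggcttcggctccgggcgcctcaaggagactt

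The Pdk4 window held 1 match, to CCAAT on the strand opposite the gene. The Pdk1 window at the first start held 2 matches to GGGCGG, at 62 bases before and 15 bases after the start, and the Pdha1 window held none of the 7 motifs. Of all 32851 mouse windows, 37.4% held CCAAT and 35.7% held GGGCGG. The other motifs stood in 3.65% (TGTTTAC), 4.72% (AAGGTCA), 19.0% (AGAACA), 7.15% (CACGTG) and 13.6% (TATAAA) of windows. The windows held 12 (Pdk4), 25 (Pdk1) and 21 (Pdha1) CG pairs, against a median of 7 over all windows. The window at the other Pdk1 start (chr2:71874654-71874953, not printed) held 2 matches to AGAACA, none to GGGCGG, and 2 CG pairs. A match is a run of letters and not a bound site.

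Pdk4 encodes the kinase known to be induced in fasted tissues (ENSMUSG00000019577, chromosome 6, 5483351 to 5496309, GRCm38). It stood at 10.04, 90.9, 10.4, 45.7 and 18.8 CPM in starved libraries 1 to 5, against 3.20, 3.15, 3.94, 2.24 and 3.02 CPM in fed libraries 1 to 5. Every starved library was above every fed library, and libraries 2 and 4 were the highest. The starved mean was 35.2 ± 34.4 CPM and the fed mean 3.11 ± 0.60 CPM (SD, n = 5 each). The log2 fold change of starved over fed was 3.50 ± 0.60 (SE, 95% interval 2.20 to 4.80; adjusted p = 0.00106, edgeR), the 35th highest of 12796 genes. With starved libraries 1, 3 and 5 alone it was 2.08 (1.61 to 2.54; adjusted p = 2.03e-05), or 4.22-fold in place of 11.3-fold, and the 71st highest of 13080 genes. The gene therefore rose in both fits, and the size depended on libraries 2 and 4.

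Libraries 2 and 4 also stood apart together in some of the marker lists, but not in all. Their 5 neutrophil markers summed to 20.8 and 24.3 CPM, against 3.83 to 10.7 CPM in the other starved and 2.79 to 5.30 CPM in the fed libraries. Of the 4 tested, 3 rose, against 18.6% of all tested genes, and none was at 0 in every library. Their 6 bile duct markers summed to 16.3 and 15.1 CPM, against 35.8 to 40.7 CPM in the other starved and 46.4 to 57.5 CPM in the fed libraries, with none at 0 in every library. Kupffer cell and macrophage markers were also lower in both, at 255 and 168 CPM, against 299 to 367 CPM in the other starved libraries. Stellate cell markers summed to 659 CPM in library 2 but 454 CPM in library 4, against 452 to 526 CPM in other starved libraries. The part of these shifts in the level of Pdk4 was not tested. Muscle is another tissue in which Pdk4 is abundant, and its 16 markers summed to 0.98 to 1.55 CPM in starved and 0.45 to 1.93 CPM in fed livers. Ckm, the muscle creatine kinase, had at most 1 read in any library. Fat cell markers summed to 13.3 CPM in library 2 and 25.9 CPM in library 4. They reached 25.6 CPM in the other starved libraries and spanned 7.835 to 29.5 CPM in fed libraries. Plin4 gave 12.2 and 24.97 CPM of the sums in libraries 2 and 4. Adipoq and Cfd were highest in fed library 1, at 3.02 and 15.7 CPM. The part of muscle or fat tissue in the level of Pdk4 was not tested.

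Pdk1 encodes a kinase known as a target of the hypoxia factor HIF1 (ENSMUSG00000006494, chromosome 2, 71873224 to 71903858). Its level was 143, 132, 108, 79.2 and 132 CPM in starved libraries and 208, 174, 145, 253 and 226 CPM in fed libraries. The groups did not overlap, but the highest starved and the lowest fed library lay next to each other. Means were 118.6 ± 25.4 CPM in starved and 201 ± 42.6 CPM in fed livers (SD, n = 5 each). The gene fell by 0.76 ± 0.19 on the log2 scale (SE, adjusted p = 0.00751, edgeR), and by 0.64 without starved libraries 2 and 4 (adjusted p = 0.00992). In contrast to Pdk4, library 2 did not stand out, and library 4 was the lowest.

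Pdk2 (ENSMUSG00000038967, chromosome 11, 95026258 to 95041354) encodes a kinase found in most tissues. It had 15.5, 14.6, 14.6, 18.9 and 21.8 CPM in starved libraries and 14.0, 14.6, 12.8, 17.8 and 20.2 CPM in fed libraries. The groups overlapped, and the gene was not called, with a log2 fold change of 0.10 and a 95% interval of -0.25 to 0.45, or 0.84-fold to 1.37-fold (adjusted p = 0.63, edgeR). Pdk3 (ENSMUSG00000035232, chromosome X, 93764607 to 93832201) is best known from brain and testis. With 15 to 29 reads a library, it had 1.13, 0.96, 0.98, 0.87 and 0.99 CPM in starved and 0.95, 0.80, 0.55, 0.65 and 0.85 CPM in fed livers. Of its starved libraries 4 were above the highest fed one, and it was not called (log2 fold change 0.37, interval -0.06 to 0.80; adjusted p = 0.15).

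To compare the kinases with each other, levels were divided by the length of all annotated exons. Per kb of exon, Pdk1 stood at 15.2 ± 3.27 CPM in starved and 25.9 ± 5.48 CPM in fed livers, and Pdk2 at 5.40 ± 1.003 and 5.02 ± 0.96 CPM (SD, n = 5). Pdk4 stood at 10.01 ± 9.80 CPM per kb in starved and 0.89 ± 0.17 CPM per kb in fed livers, and Pdk3 at 0.38 ± 0.04 and 0.30 ± 0.06. Pdk1 was the most abundant kinase transcript in every fed library and in starved libraries 1, 3 and 5, while Pdk4 was in starved libraries 2 and 4. With the longest transcript as length in place of all exons, Pdk1 (15.3 CPM per kb) also exceeded Pdk4 (13.1 CPM per kb) in library 4.

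**Figure D2:**
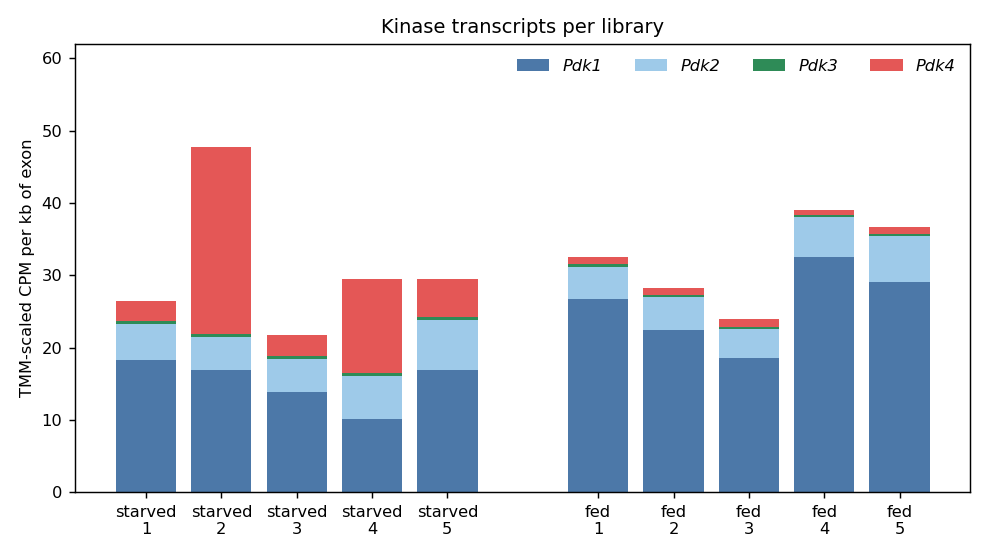
Summed level of the kinase transcripts in each library, in TMM-scaled CPM per kb of exon, split by gene, with starved libraries left of fed libraries. Pdk4 takes 10.8% to 54.2% of the sum in starved and 1.63% to 4.68% in fed libraries, while the sums themselves overlap.

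Pdk4 made up 10.8%, 54.2%, 13.5%, 44.1% and 18.1% of the summed kinase level in starved libraries 1 to 5. In fed libraries its share was 2.80%, 3.17%, 4.68%, 1.63% and 2.35%. The share of Pdk1 was 34.5% to 69.1% in starved and 77.5% to 83.3% in fed libraries. Neither share overlapped between the groups. The sum was 31.0 ± 9.88 CPM per kb in starved and 32.1 ± 6.11 CPM per kb in fed livers, so the makeup of the kinase transcripts differed while their sum overlapped. No test is attached to these sums and shares, since they are scores over chosen genes. With the longest transcript as length, the mean share of Pdk4 was 22.1% in starved and 2.01% in fed livers, and that of Pdk1 57.4% and 82.1%. The mean sum was then 41.0 CPM per kb in starved and 47.1 CPM per kb in fed livers.

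Pdp2 (ENSMUSG00000048371, chromosome 8, 104591451 to 104599026) encodes the phosphatase known, from rat, as the insulin-responsive one. It had 18.8, 42.8, 17.6, 17.6 and 32.2 CPM in starved libraries and 28.9, 33.9, 30.2, 29.5 and 29.9 CPM in fed libraries. Starved libraries 1, 3 and 4 were below all fed libraries, library 5 was within their range and library 2 above it. The gene was not called (log2 fold change -0.24, interval -0.76 to 0.27; adjusted p = 0.432, edgeR), but fell without starved library 2 (-0.50, adjusted p = 0.0281). With libraries 2 and 4 both left out the value was -0.41 (adjusted p = 0.0605). Here 1 library decided the call, and of the 2 libraries with the most Pdk4, library 2 had the most Pdp2 while library 4 was below every fed library.

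Pdp1 (ENSMUSG00000049225, chromosome 4, 11958184 to 11966452) encodes the calcium-activated phosphatase. It had 3.46, 5.08, 3.05, 4.05 and 2.78 CPM in starved and 3.79, 3.08, 2.54, 1.65 and 2.86 CPM in fed livers. Of its starved libraries 2 and 4 were above the highest fed one, and it was not called (log2 fold change 0.40, interval -0.10 to 0.91; adjusted p = 0.184). Per kb of exon Pdp2 exceeded Pdp1 in all 10 libraries, by 3.45 to 9.16 times in starved and 6.03 to 14.2 times in fed livers. The summed kinases exceeded the summed phosphatases by 5.99 ± 1.01 times in starved and 5.41 ± 1.26 times in fed livers, and these ratios overlapped. With the longest transcript as length their means were 7.92 in starved and 7.90 in fed livers. The ratio of Pdk4 to Pdp2 did not overlap, at 0.87, 3.44, 0.96, 4.20 and 0.95 in starved libraries against 0.12 to 0.21 in fed libraries. Neither did the level of Pdk4 itself, nor its ratios to Pdk1 and Pdk2.

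**Figure D3:**
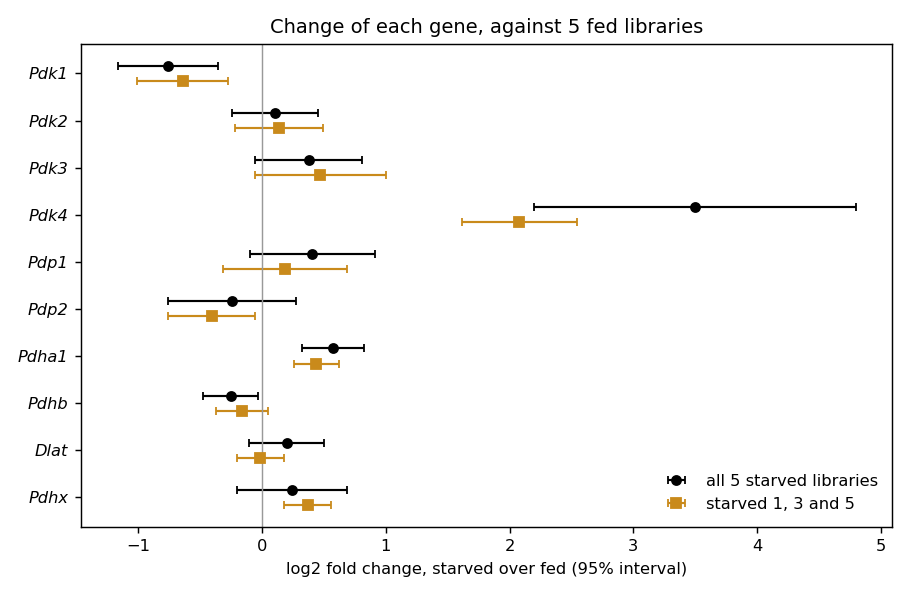
Log2 fold change of starved over fed liver with its 95% interval for each gene, from all 5 starved libraries (black circles) and from starved libraries 1, 3 and 5 (orange squares), each against 5 fed libraries. Pdk4 lies at 3.50 in the first fit and 2.08 in the second, and its interval stays clear of 0 in both, as do those of Pdk1 and Pdha1.

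Among the subunits, Pdha1 makes the alpha chain of E1, the decarboxylase that the kinases act on (ENSMUSG00000031299, chromosome X, 160122209 to 160138413). Its level was 146, 198, 145, 172 and 141 CPM in starved libraries and 102.6, 115, 105, 116 and 100.6 CPM in fed libraries. Every starved library was above every fed library, again with libraries 2 and 4 highest. The means were 161 ± 24.5 CPM in starved and 108 ± 7.21 CPM in fed livers (SD, n = 5 each), a log2 fold change of 0.57 ± 0.12 (SE, adjusted p = 0.00276, edgeR). Without starved libraries 2 and 4 it rose by 0.44 (adjusted p = 0.00156). Pdha1 shares 603 of its 3734 exon bases with Map3k15, a kinase gene on the opposite strand, which had 1.52 ± 0.45 CPM in starved and 1.10 ± 0.20 CPM in fed livers. Without a stated strand setting, the reads of the pair in that stretch cannot be told apart.

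Pdhb makes the beta chain of E1 (ENSMUSG00000021748, chromosome 14, 8165996 to 8173025), which pairs with the alpha chain in a fixed ratio. It had 105, 82.7, 93.1, 93.1 and 102 CPM in starved libraries and 109, 119, 100.5, 127 and 112 CPM in fed libraries. Libraries 2, 3 and 4 were below all fed libraries, and 1 and 5 were within their range. Its log2 fold change was -0.25 with an interval of -0.48 to -0.03 before adjustment, and it was not called (adjusted p = 0.0665, edgeR). With library totals alone as scaling it fell (-0.41, adjusted p = 0.0178). The E1 chains thus gave estimates of opposite sign, and that of Pdha1 alone was called.

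Per kb of exon, the ratio of Pdha1 to Pdhb was 1.44, 2.48, 1.61, 1.91 and 1.43 in starved libraries. In fed libraries it was 0.97, 0.998, 1.08, 0.94 and 0.92. The ratio was higher in every starved library than in every fed library, at 1.77 ± 0.44 against 0.98 ± 0.06 (SD, n = 5 each), and 1.49 ± 0.10 in starved libraries 1, 3 and 5. It needs no scaling between libraries, and has no test attached. The absolute value depends on the length used: with the longest transcript it was 1.43 in starved and 0.79 in fed livers.

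**Figure D4:**
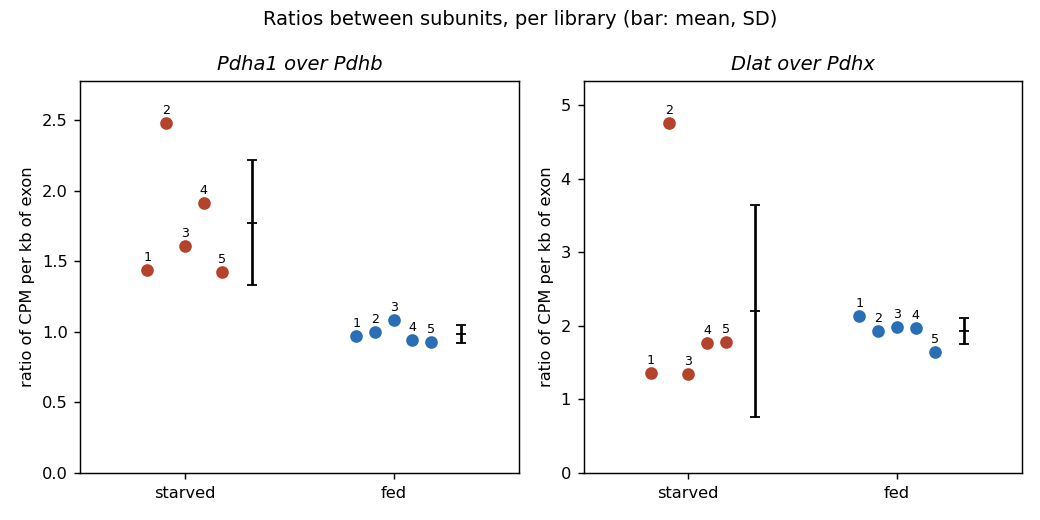
Ratio of Pdha1 to Pdhb (left) and of Dlat to Pdhx (right), each as CPM per kb of exon, in starved (red) and fed (blue) libraries, with library numbers above the points and group mean ± SD in black. The first ratio does not overlap between the groups, and in the second starved library 2 lies at 4.76, away from all others.

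Dlat makes E2, the acetyltransferase that forms the core of the complex (ENSMUSG00000000168, chromosome 9, 50634633 to 50659780). It had 62.5, 96.1, 64.1, 93.2 and 71.1 CPM in starved libraries and 68.8, 72.8, 68.1, 69.3 and 58.1 CPM in fed libraries. Libraries 2 and 4 were above all fed libraries, while the other 3 were within the fed range. The log2 fold change was 0.20 (interval -0.10 to 0.50; adjusted p = 0.273, edgeR), and -0.01 without libraries 2 and 4 (interval -0.21 to 0.18).

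Pdhx makes the protein that anchors E3 to the core (ENSMUSG00000010914, chromosome 2, 103021075 to 103073513). Its level was 37.0, 16.2, 38.3, 42.5 and 32.2 CPM in starved libraries and 25.9, 30.4, 27.7, 28.4 and 28.5 CPM in fed libraries. Starved libraries 1, 3, 4 and 5 were above all fed libraries and library 2 was below all of them. With that spread it was not called (log2 fold change 0.24, interval -0.21 to 0.69; adjusted p = 0.368, edgeR). It rose without starved library 2 (0.43, adjusted p = 0.00324) and without libraries 2 and 4 (0.37, adjusted p = 0.00534). Leaving out these libraries, 3 of the 10 genes were higher and 1 lower, against 20.2% and 20.7% of 13080 genes tested. The ratio of Dlat to Pdhx per kb of exon was 1.36, 4.76, 1.35, 1.76 and 1.78 in starved and 2.14, 1.93, 1.98, 1.97 and 1.64 in fed livers.

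The order of the 10 levels per kb differed between the groups. In starved liver Pdha1 came first (43.0 ± 6.57 CPM per kb), then Pdhb (24.7 ± 2.30) and Dlat (15.8 ± 3.30), and neither step overlapped. Dlat, Pdk1, Pdk4, Pdhx, Pdk2 and Pdp2 followed, with every neighbour overlapping the next, and Pdp1 and Pdk3 were the lowest. The place of Pdk4 in starved liver rested on libraries 2 and 4. Without library 2 its mean was 6.04 CPM per kb, below Pdhx (9.54), and without both it was 3.72, eighth as in fed liver, with Pdk1 (16.4) then ahead of Dlat (13.5). In fed liver Pdhb (29.4 ± 2.62) and Pdha1 (28.9 ± 1.93) overlapped each other, and Pdk1 overlapped Pdha1. Dlat (13.8 ± 1.13) and Pdhx (7.17 ± 0.41) followed without overlap, then Pdp2 and Pdk2, which overlapped. Pdk4 came eighth in fed liver and overlapped Pdp1. With the longest transcript as length, Pdk4 (10.1) came after Pdhx (13.3) and Dlat (19.2) after Pdk1 (22.9) in starved liver. In fed liver Pdk1 (38.8) then came ahead of Pdha1 (37.9), and Pdk2 (7.07) ahead of Pdp2 (5.36).

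Of the other genes of the complex, Dld rose. It makes E3, which reloads the lipoyl groups of E2, and which the sister complexes share. Dld had 96.4, 85.7, 97.4, 100.5 and 87.6 CPM in starved libraries and 67.5, 70.0, 72.7, 69.0 and 73.3 CPM in fed libraries. The groups did not overlap, with a log2 fold change of 0.41 ± 0.08 (SE, adjusted p = 0.00329, edgeR), but with library totals as the only scaling it was not called (0.25, adjusted p = 0.074). Pdpr, the regulatory subunit of the phosphatase, had 15.8 ± 2.05 CPM in starved and 13.2 ± 0.60 CPM in fed livers and was not called (0.26 ± 0.11, adjusted p = 0.0792). It was called by DESeq2 (adjusted p = 0.0289) and without starved library 1 (adjusted p = 0.0432) or 2 (adjusted p = 0.032). Sirt3, a mitochondrial deacetylase (85.4 ± 7.46 and 91.8 ± 13.5 CPM), and Sirt4, known to remove lipoyl groups from E2 (5.22 ± 1.85 and 5.35 ± 0.56 CPM), were not called. Pdha2, the E1 alpha gene of testis, had 0 reads in all 10 libraries, which allows at most 0.17 CPM in any of them for counting error alone.

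Across all tested genes 18.6% rose and 20.0% fell, and 20.2% and 20.7% did so without starved libraries 2 and 4. Of 14 tested genes that supply, move or exchange pyruvate, 5 rose and 3 fell, 6 and 4 without these libraries. Those that rose the most were Gpt2, a mitochondrial alanine aminotransferase (1616 ± 807 CPM in starved and 598 ± 81.8 CPM in fed livers; log2 fold change 1.43, and 0.95 without libraries 2 and 4), and Slc16a7, a monocarboxylate transporter (0.94). Next came Pcx, pyruvate carboxylase, which takes pyruvate towards glucose (584 ± 70.7 and 359 ± 47.8 CPM; 0.70). The other 2, Gpt (0.61) and Slc16a1 (0.53), are named after their values were seen, and Slc16a1 was not called without libraries 2 and 4 (adjusted p = 0.0564). Pklr, the liver pyruvate kinase, fell (26.0 ± 13.8 CPM in starved and 221 ± 68.6 CPM in fed livers; -3.09), as did Me1, the cytosolic malic enzyme (-0.74), and Ldhd, a D-lactate dehydrogenase (-0.53). The median of the list was 0.22. Ldhd was not called without starved library 4 (adjusted p = 0.0525), and stood at -0.28 without libraries 2 and 4. The carrier genes that bring pyruvate into mitochondria, Mpc1 and Mpc2, named after their values were seen, had 418 and 390 CPM in starved and 392 and 407 CPM in fed livers and were not called.

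Of 8 tested genes of the sister dehydrogenase complexes for 2-oxoglutarate, 2-oxoadipate and branched-chain acids, 4 rose and 0 fell (median 0.39). Without starved libraries 2 and 4, 5 rose and 1 fell. Ogdh, E1 of the 2-oxoglutarate complex, had 165 ± 54.0 CPM in starved and 88.4 ± 8.16 CPM in fed livers (log2 fold change 0.90, and 0.54 without libraries 2 and 4). Its partner Dlst, the E2, had 228 ± 23.3 and 122 ± 10.1 CPM (0.90), and Dhtkd1, E1 of the 2-oxoadipate complex, 49.8 ± 13.6 and 29.1 ± 3.93 CPM (0.77). Dbt, the branched-chain E2, was the fourth (0.49, named after its value was seen). None of the 8 was called lower by edgeR, DESeq2 or limma-voom, and 1 had an unadjusted edgeR p under 0.05 in that direction, Ppm1k, the phosphatase of the branched-chain complex, named after its value was seen. Ppm1k is also the gene that fell without libraries 2 and 4, and it was called lower with upper-quartile factors, with library totals alone and without starved library 4 or fed library 1.

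Of 12 tested genes for the lipoate and thiamine cofactors of the complex, 0 rose and 2 fell (median -0.13). The shares over all tested genes were 18.6% and 20.0%. Fdx1, a ferredoxin known to serve lipoate synthesis, had 60.8 ± 9.07 CPM in starved and 88.0 ± 6.66 CPM in fed livers (log2 fold change -0.53). No gene was called higher by edgeR or limma-voom, 1 was by DESeq2 and 1 had an unadjusted edgeR p under 0.05. Without starved libraries 2 and 4, 4 rose and 2 fell, against 20.2% and 20.7% of all tested genes. Without library 2 alone 4 rose, where 2766 of all tested genes rose. With library totals alone 5 fell, against 27.3% of all tested genes. Without starved library 5, 4 fell, where 2643 of all tested genes fell.

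Of 13 transcription factors and coactivators known to act on Pdk genes, 3 rose and 1 fell (median 0.26). The shares over all tested genes were 18.6% and 20.0%. Ppargc1a, the coactivator of fasting genes, had 29.7 ± 6.51 CPM in starved and 6.56 ± 0.75 CPM in fed livers (log2 fold change 2.18, and 2.20 without libraries 2 and 4). Esrra, an orphan receptor that binds the Pdk4 promoter, had 63.0 ± 25.7 and 32.8 ± 4.24 CPM (0.94, and 0.50 without libraries 2 and 4). Myc had 16.9 ± 20.1 and 1.62 ± 0.56 CPM (3.38, and 1.64 without libraries 2 and 4). Ppara, the fatty acid receptor known to induce Pdk4, fell, with 169 ± 55.0 CPM in starved and 389 ± 52.1 CPM in fed livers (-1.20). Without starved library 3, 5 of the 13 rose, where 2420 of all tested genes rose. Without library 2, 3 fell, where 2847 of all tested genes fell. Without libraries 2 and 4, 2 fell, against 20.7% of all tested genes. With library totals alone 2 fell, against 27.3%.

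Likeness to Pdk4 was measured as the root mean square difference of mean-centred log2 (CPM + 0.5) profiles over the 10 libraries, across 8650 other genes with a mean of at least 5 CPM. The nearest profile was that of Fam134b, an autophagy receptor of the endoplasmic reticulum, at 0.24, where the median gene was at 1.64. Fam134b had 606, 3346, 498, 1811 and 825 CPM in starved and 161 to 192 CPM in fed libraries (log2 fold change 3.01, and 1.89 without libraries 2 and 4). Then came Map3k6, a MAP kinase kinase kinase (0.33), Mt1, a metallothionein (0.36), Got1, the cytosolic aspartate aminotransferase (0.37), and Myc (0.37). In all 5 the highest library was starved library 2 and the next starved library 4, as for Pdk4. The genes were chosen for nearness to Pdk4 over these same libraries. That choice favours this order and fold changes that shrink without libraries 2 and 4, so neither is a separate result. The log2 fold change of Map3k6 was 4.14, and 1.93 without libraries 2 and 4, that of Mt1 3.06 and 2.02, and that of Got1 3.19 and 2.13.

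**Figure D5:**
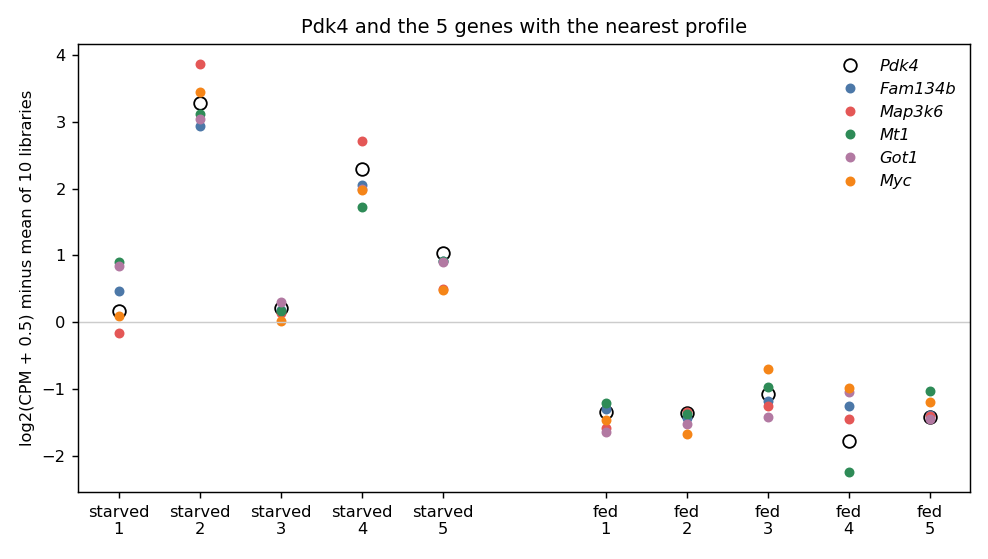
Log2 (CPM + 0.5) minus the mean of the 10 libraries for Pdk4 (open circles) and the 5 genes with the nearest profiles, with starved libraries left of fed libraries. All 6 genes are highest in starved library 2 and second in starved library 4, and lie below 0 in every fed library. The choice of the 5 by nearness to Pdk4 favours this pattern.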

How the data were processed

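The 10 liver libraries were grouped by their titles. Build mm10, TopHat2 2.0.0 with Bowtie2 2.0.0, HTSeq, CASAVA 1.8.2 and edgeR 3.6.4 appear in the submitters' processing notes, and neither the annotation nor the strand setting is given there. Raw read counts per gene symbol were deposited. HTSeq's tallies of unassigned reads (no gene 15.96% to 24.7% of reads, several places 38.6% to 48.4%) stayed out of library sizes and tests, so reads shared with pseudogenes are not counted.

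Counts were filtered with filterByExpr, scaled by TMM and compared with edgeR 4.0.16 (quasi-likelihood test, Benjamini-Hochberg adjustment) in R 4.3.3. The SE of a log2 fold change is its size divided by the square root of F. Lengths and coordinates are from GENCODE M21 (GRCm38), in which 92.8% of gene rows matched 1 gene. Of the 10 genes, 9 had a RefSeq promoter window. Alternatives were other scalings, filters and tests (DESeq2 1.42.0, limma 3.58.1), a replicate block, a stricter threshold, another length and leaving out libraries. Leaving out starved libraries 2 and 4 together was added after the data were seen. The genes and lists were chosen with earlier results of these data known. The genes named are the 10, the other genes of the complex, the called genes with the largest change in each list (3 each way, at least 1 CPM), and the 5 nearest to Pdk4. A single one of the genes so chosen is not reported here. Alb, also in the rule, stood at 94210 and 82740 CPM in starved and fed livers. P-values weigh the difference between the groups against the spread between these libraries, and counting limits cover counting error only.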

Additional observations from a re-analysis of the deposited data

Results flagged for a closer look

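In groups of 5, a library was looked at again when its gap to the nearest other, divided by the group's range, exceeded 0.71. This was done for 56 groups of values, of which 2 passed. About 1 in 20 groups passes by chance. The ratio of Dlat to Pdhx per kb of exon was 4.76 in starved library 2, against 1.35 to 1.78 in the other starved libraries (gap over range 0.87). It combines a Pdhx level below every other library with a high Dlat level. Pdp2 was at 33.9 CPM in fed library 2, against 28.9 to 30.2 CPM in the other fed libraries (0.73).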

How the results depend on the processing

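For the 10 genes, 193 of 199 results under alternatives kept their direction and their side of the threshold, 4 passed it and 2 changed sign. Library totals alone, which shifted the median of all genes to -0.15 (log2), gave 1490 genes higher and 3490 lower, a second gene lower (2 of 10, with Pdhb at -0.41) and a value of -0.053 for Pdk2. Without starved libraries 2 and 4 Pdhx passed (0.37) and Dlat turned to -0.015. Leaving out 1 library at a time gave 1868 to 2766 genes higher and 2043 to 2847 lower, and 2 to 3 of the 10 higher and 1 to 2 lower. The log2 fold change then ranged from 2.78 to 3.74 for Pdk4, -0.86 to -0.63 for Pdk1, 0.50 to 0.62 for Pdha1, -0.50 to -0.11 for Pdp2, -0.30 to -0.20 for Pdhb and 0.16 to 0.43 for Pdhx. Sirt4, at -0.04, ranged from -0.215 to 0.138 when 1 library was left out, with values above 0 of 0.14 without starved library 2, 0.01 without starved library 4 or fed library 5, and 0.23 without starved libraries 2 and 4. The cause of these shifts was not tested. Pdk3 could not be fitted with a filter of 1 CPM in 5 libraries. Between same-numbered starved and fed libraries the correlations of deviations were 0.20, 0.07, -0.01, -0.05 and -0.03. Starved libraries 1 and 2 correlated best with the fed library of their own number, and the others did not. The labels speak of pairs but do not say that a number marks a pair. So few correlations, with starved libraries 2 and 4 apart, cannot decide whether it does. With the number as a replicate block, 2029 genes were higher and 2381 lower, and the 3 called genes kept their calls (Pdk4 2.98, Pdk1 -0.76, Pdha1 0.56). At 15 to 29 reads a library, depth limits what can be seen of Pdk3.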

Other observations

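The 10 genes differed in how much they varied within a group. Among 11580 genes with a mean of at least 1 CPM, the median coefficient of variation was 22.0% over the 5 starved and 11.0% over the 5 fed libraries. Pdk4 varied by 97.8% among starved libraries, more than 99.2% of those genes, and by 19.4% among fed libraries. Among starved libraries 1, 3 and 5 alone it varied by 37.9%. Pdp2 varied by 44.0% among starved and 6.46% among fed libraries, and still by 35.5% among starved libraries 1, 3 and 5. Pdhx varied by 30.6% among all starved libraries but by 8.94% among libraries 1, 3 and 5. Pdha1 varied by 15.3% among starved libraries and 1.99% among 1, 3 and 5, less than all but 2.77% of genes. Pdk1 varied by 21.4% in starved and 21.2% in fed libraries, and by 13.9% among starved libraries 1, 3 and 5.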
